A study of Mus musculus with 12 samples.

Results

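The genes described here encode the kinesin and cytoplasmic dynein motors, their light and intermediate chains, and the 6 dynactin subunits Dctn1 to Dctn6. They were taken by name from the protein-coding genes of the count table: symbols that start with Kif and a digit, Dync1, Dync2, Klc or Dynll, and Dctn1 to Dctn6. Genes with at least 100 counts summed over the 12 libraries were kept, which gave 53 of the 52550 genes listed, or of the 21819 that are protein-coding. Another 5 genes of these names had fewer counts and were left out, with 55 counts for Kif17, 48 for Dync1i1, 8 for Kif28, 3 for Kif2b and 0 for Kif12. The 53 genes comprised 12 kinesins of cargo transport, 11 mitotic kinesins, 11 other kinesins, 4 kinesin light chains, 2 dynein heavy chains, 1 dynein intermediate chain, 3 dynein light intermediate chains, 2 dynein light chains and 6 dynactin subunits. The name rule also took in Kif1bp, which encodes a protein that binds kinesins and is not a motor.

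Kinesins are motor proteins that walk along microtubules, most of them towards the plus end, and in a neuron they carry vesicles, mitochondria and RNA granules from the cell body into the axon. Cytoplasmic dynein walks towards the minus end and needs dynactin and an adaptor for long runs. It is built from heavy chains, which hold the motor, and from intermediate, light intermediate and light chains, which link it to cargo. A separate set of kinesins builds the spindle and the cleavage furrow and is made in dividing cells. Ythdf1 and Ythdf2 are cytoplasmic proteins that bind mRNA carrying N6-methyladenosine, a methyl mark placed mostly on a short motif with the core GGACT and enriched near stop codons. Ythdf1 is best known for effects on translation, and Ythdf2 for mRNA decay.

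RNA immunoprecipitation followed by sequencing was carried out on wild-type C57BL/6 mice. There were 6 groups of 2 libraries each: Ythdf1 immunoprecipitate (IP), Ythdf2 IP and input from retina at postnatal day 0 (P0), and the same 3 kinds from cortex at embryonic day 12.5 (E12.5). Cells dissociated from the tissue entered the precipitation, and input RNA served as the background, because the samples hold no precipitate made with an unrelated antibody. Nothing in the labels says that replicates came from separate animals, so that the p-values measure the spread between these libraries, which may be technical.

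Libraries held 19530226 to 40515980 counts, of which 1676910 to 13621485 lay in protein-coding genes and 14029 to 121916 in the 53 motor genes. Of 8 retina marker genes, the summed level was 1497 to 2084 CPM (counts scaled to a common total, here that of the protein-coding counts) in the retina libraries, against 0 to 63.1 in the cortex libraries. The library labelled cortex input replicate 1 went against its label. Its 5 mature neuron markers summed to 6592 protein-coding CPM and its 5 oligodendrocyte and astrocyte markers to 6944, against 94.3 and 29.3 in cortex input replicate 2. Its 9 markers of dividing cells summed to 36.4, with 6 of them at 0, against 2689 in replicate 2. The Spearman correlation of the pair of cortex inputs over genes was 0.550, against 0.879 to 0.973 in the other 5 groups. The retina comparisons were therefore fitted on the 6 retina libraries, which that library does not enter. On the opposite strand 13 of the 53 motor genes (Dync1h1, Dync1li2, Dctn6, Klc1, Klc3, Kif2a, Kif3c, Kif4, Kif7, Kif18a, Kif20a, Kif22 and Kif27) overlap a gene of at least 50 counts, and the strand setting of the counting is unknown here, so that their counts are uncertain. The overlapping gene had 190 counts against 74652 for Dync1h1, 61 against 2099 for Dctn6 and 75 against 512 for Kif27, summed over all libraries. It had more counts than the motor gene for Kif7 (Ticrr, 9917 against 2264), Kif20a (Cdc23, 7547 against 5820) and Klc3 (Ercc2, 2796 against 767). For Kif4 it was Pdzd11, with 2876 against 5913.

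Motor mRNA made up a larger share of the retina IPs than of the retina input. The 53 genes took 7107 and 7077 protein-coding CPM in the 2 Ythdf1 IPs, with 7013 and 6733 in the 2 Ythdf2 IPs, against 3867 and 3854 in the 2 inputs. All 4 IPs lay above both inputs. The gain was uneven. The heavy chain of cytoplasmic dynein 1, the kinesin-1 gene Kif5c, 5 of 6 kinesin-3 genes and the kinesin-2 gene Kif3c were higher than input with each antibody. The dynein light chain gene Dynll1 and the dynactin genes Dctn3 and Dctn6 were lower with each. The antibodies share the same 2 inputs, so that these are not separate measurements of a difference from input. Most mitotic kinesins passed no test in either direction.

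In the Ythdf1 IP against input, 50 of the 53 genes passed the filter on low counts (Kif6, Kif9 and Kif27 did not). With edgeR's quasi-likelihood test, and p-values adjusted after Benjamini and Hochberg across the 14380 genes that entered the fit, 14 were higher and 10 were lower at an adjusted p under 0.05. Over all genes tested, 17.3% were higher and 20.3% were lower, 37.6% in all, with a median log2 fold change of -0.07. The 14 higher motor genes make up a larger share of the 50 than that background, and the 10 lower ones about the same share. In the Ythdf2 IP against input, 11 were higher and 5 lower, against 9.55% and 10.7% of all genes, 20.2% in all, and a median of 0.06. The Ythdf1 count dropped to 10 without Ythdf1 IP replicate 1 and to 11 without replicate 2, and was 36 and 33 without either input (47.3% and 44.2% of all genes then). The Ythdf2 count was 0 without Ythdf2 IP replicate 1, 2 without Ythdf2 IP replicate 2, 6 and 5 without either Ythdf1 IP, and 27 and 29 without either input (33.4% and 35.6% of all genes then). The share of all genes called moved the same way: it fell without a retina IP library and rose without an input. These changes in count are therefore not a trait of motor genes alone. Scaled by library totals, the all-gene median of the Ythdf2 comparison moved to 0.27 and its split to 13 higher and 1 lower (20.3% of all genes in either direction). With protein-coding genes alone the split was 7 higher and 6 lower (18.4% of the genes then tested).

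**Figure D1:**
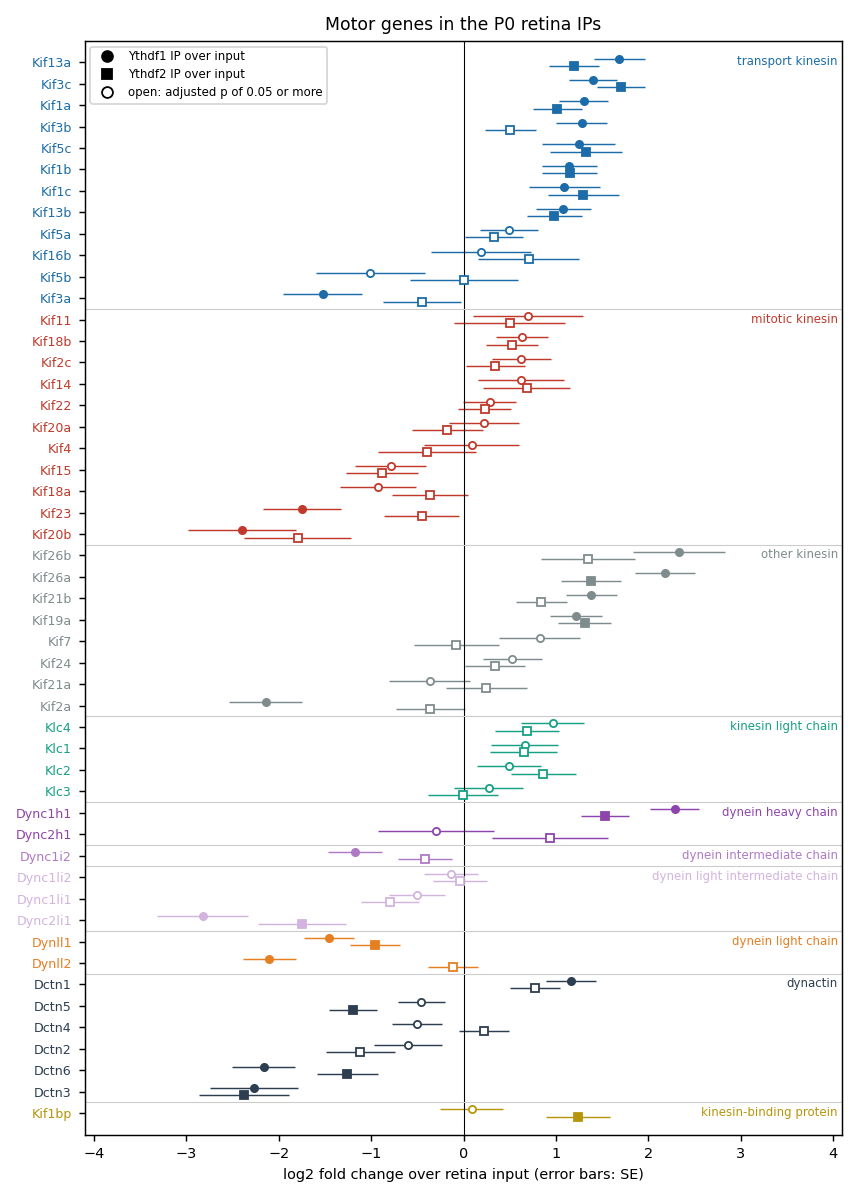
Log2 fold change over retina input (x axis) of the 50 motor genes tested, by role, with circles for the Ythdf1 IP, squares for the Ythdf2 IP, bars for the SE and filled symbols for an adjusted p under 0.05. Among transport kinesins 8 of 12 were higher with Ythdf1 and 7 of 12 with Ythdf2, while among mitotic kinesins none of 11 was higher with either antibody.

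The 2 dynein heavy chains differed. Dync1h1 encodes the motor subunit of cytoplasmic dynein 1, the dynein of retrograde axonal transport. It had 139 and 127 normalised CPM (scaled by the trimmed mean of M values over the 6 retina libraries) in the Ythdf1 IPs, 84.6 and 72.5 in the Ythdf2 IPs, and 29.2 and 25.2 in the inputs. The 3 groups did not overlap, with Ythdf1 IPs highest and inputs lowest. Its log2 fold change was 2.29 ± 0.27 (SE, adjusted p = 0.000425) with Ythdf1 and 1.53 ± 0.26 (adjusted p = 0.00423) with Ythdf2. Dync1h1 took 20.6% and 19.3% of all motor-gene counts in the Ythdf1 IPs, 13.2% and 11.8% in the Ythdf2 IPs, and 6.27% and 5.63% in the inputs. Dync2h1 encodes the heavy chain of dynein 2, which moves cargo inside cilia. It had 2.502 and 1.724 normalised CPM in the Ythdf1 IPs, 4.16 and 5.82 in the Ythdf2 IPs, and 0.826 and 4.38 in the inputs, which spanned the values of the Ythdf1 IPs. No difference passed the test, with log2 fold changes of -0.30 ± 0.63 (adjusted p = 0.734) and 0.94 ± 0.63 (adjusted p = 0.323).

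The smaller dynein chains were lower or passed no test. Dync1i2, the intermediate chain that ties dynein to dynactin, had 4.40 and 5.72 normalised CPM in the Ythdf1 IPs, 9.73 and 7.35 in the Ythdf2 IPs, and 10.5 and 12.3 in the inputs. Both inputs lay above all IPs, and the fall passed the test with Ythdf1 (-1.17 ± 0.30, adjusted p = 0.0131) and not with Ythdf2 (-0.42 ± 0.29, adjusted p = 0.347). Among the light intermediate chains, which bind adaptors, Dync1li1 had 9.42 and 6.92 normalised CPM in the Ythdf1 IPs, 6.74 and 6.61 in the Ythdf2 IPs, and 13.9 and 9.28 in the inputs. Its groups overlapped for Ythdf1, and neither difference passed the test (log2 -0.50 ± 0.31 and -0.80 ± 0.31). Dync2li1, the light intermediate chain of ciliary dynein 2, was the motor gene with the largest fall in the Ythdf1 IP. It had 0.316 and 0.661 normalised CPM in the Ythdf1 IPs, 1.12 and 0.919 in the Ythdf2 IPs, and 3.96 and 2.93 in the inputs. Its IPs rested on few reads, 13 and 23 counts in the Ythdf1 IPs, with 27 and 21 in the Ythdf2 IPs, against 134 and 105 in the inputs. The log2 fold changes were -2.82 ± 0.49 (adjusted p = 0.00251) and -1.75 ± 0.47 (adjusted p = 0.0301).

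Dynll1 and Dynll2 encode the near-identical LC8 light chains, which join many complexes besides dynein. Dynll1 had 9.21 and 8.16 normalised CPM in the Ythdf1 IPs, 12.2 and 12.3 in the Ythdf2 IPs, and 27.5 and 20.2 in the inputs. Both inputs lay above all 4 IPs, and Dynll1 was lower with Ythdf1 (log2 -1.46 ± 0.27, adjusted p = 0.00363) and with Ythdf2 (-0.96 ± 0.27, adjusted p = 0.0364). Dynll2 had 10.9 and 12.2 normalised CPM in the Ythdf1 IPs, 45.5 and 46.1 in the Ythdf2 IPs, and 59.0 and 40.3 in the inputs. Its Ythdf1 IPs stood far below the other 4 libraries (-2.10 ± 0.29 over input, adjusted p = 0.000833), while its Ythdf2 IPs lay between the 2 inputs (-0.12 ± 0.27, adjusted p = 0.803).

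Dynactin, the cofactor that lets dynein run far along a microtubule, was split by subunit. Dctn1 encodes p150Glued, the long arm that touches both dynein and the microtubule. It had 32.0 and 29.4 normalised CPM in the Ythdf1 IPs, 23.8 and 23.0 in the Ythdf2 IPs, and 15.8 and 11.5 in the inputs, with no overlap between groups. Its rise passed the test with Ythdf1 (log2 1.17 ± 0.27, adjusted p = 0.00907) and not with Ythdf2 (0.77 ± 0.27, adjusted p = 0.0716). Dctn3 encodes the small p24 subunit of the shoulder. It had 2.04 and 1.49 normalised CPM in the Ythdf1 IPs, 2.00 and 1.27 in the Ythdf2 IPs, and 12.1 and 4.93 in the inputs. All IPs were lower than both inputs, by log2 -2.26 ± 0.48 (adjusted p = 0.00594) and -2.38 ± 0.49 (adjusted p = 0.00973), although the inputs themselves were far apart. Dctn6, a subunit of the pointed end, had 1.92 and 1.98 normalised CPM in the Ythdf1 IPs, 4.45 and 2.85 in the Ythdf2 IPs, and 9.06 and 8.42 in the inputs. It was lower with both (-2.16 ± 0.34, adjusted p = 0.00153, and -1.26 ± 0.33, adjusted p = 0.0266). Dctn5, its partner at the pointed end, had 6.03 and 6.00 normalised CPM in the Ythdf2 IPs, against 13.9 and 13.6 in the inputs, and fell with that antibody by 1.19 ± 0.26 on the log2 scale (adjusted p = 0.0128). Dctn2 and Dctn4 passed no test.

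Kinesin-1 is built from Kif5 heavy chains and Klc light chains, and its 3 heavy chain genes behaved differently. Kif5c, a neuronal heavy chain, had 30.8 and 33.7 normalised CPM in the Ythdf1 IPs, 38.7 and 29.5 in the Ythdf2 IPs, and 8.06 and 19.2 in the inputs. All IPs lay above both inputs (log2 1.24 ± 0.39, adjusted p = 0.0323, with Ythdf1, and 1.32 ± 0.39, adjusted p = 0.0414, with Ythdf2). Kif5a, the other neuronal heavy chain, had 12.2 and 9.91 normalised CPM in the Ythdf1 IPs, 8.03 and 11.7 in the Ythdf2 IPs, and 9.27 and 6.47 in the inputs. The Ythdf2 IPs overlapped the inputs, and neither difference passed the test (0.49 ± 0.31, adjusted p = 0.247, and 0.33 ± 0.32, adjusted p = 0.505). Kif5b, the heavy chain made in most cell types, had 2.09 and 2.21 normalised CPM in the Ythdf1 IPs, 4.53 and 4.16 in the Ythdf2 IPs, and 1.48 and 7.16 in the inputs. The inputs enclosed all 4 IP values, and no call was made (-1.01 ± 0.59, adjusted p = 0.209, and 0.01 ± 0.59, adjusted p = 0.995).

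None of the 4 light chain genes was called, with log2 fold changes of 0.27 to 0.96 with Ythdf1 and -0.01 to 0.86 with Ythdf2. Klc1, the main light chain of neurons, had 33.5 and 34.2 normalised CPM in the Ythdf1 IPs, 33.8 and 33.2 in the Ythdf2 IPs, and 29.7 and 13.1 in the inputs. The IPs lay above both inputs, but the inputs were further apart than the IPs were from the nearer one (0.66 ± 0.36, adjusted p = 0.176, and 0.65 ± 0.36, adjusted p = 0.237). Klc2 had 4.32 and 3.65 normalised CPM in the Ythdf1 IPs, 4.66 and 5.69 in the Ythdf2 IPs, and 3.48 and 2.20 in the inputs (0.49 ± 0.35, adjusted p = 0.294, and 0.86 ± 0.35, adjusted p = 0.111). Its 4 IPs also stood above both inputs without passing the test. Klc4 came closest to the threshold, at 0.96 ± 0.34 with Ythdf1 (adjusted p = 0.0505). Klc1 and Klc3 each overlap a gene on the opposite strand, Xrcc3 and Ercc2. The strand setting of the counting is not given in the sources used here, so that their counts are uncertain.

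The kinesin-3 genes, whose products carry synaptic vesicle precursors, dense-core vesicles and endosomes, were higher with each antibody, against the same inputs, in 5 of 6 cases. Kif1a had 69.3 and 65.2 normalised CPM in the Ythdf1 IPs, 53.4 and 57.0 in the Ythdf2 IPs, and 31.4 and 23.2 in the inputs. Kif1b had 36.4 and 39.3 in the Ythdf1 IPs, 34.4 and 41.6 in the Ythdf2 IPs, and 13.2 and 20.98 in the inputs. For both genes every IP lay above both inputs. The log2 fold changes of Kif1a were 1.30 ± 0.27 (adjusted p = 0.00519) and 1.02 ± 0.27 (adjusted p = 0.0261), and those of Kif1b 1.14 ± 0.30 (adjusted p = 0.0149) and 1.15 ± 0.30 (adjusted p = 0.0254). Kif13a had 30.4 and 29.8 normalised CPM in the Ythdf1 IPs, 23.4 and 19.4 in the Ythdf2 IPs, and 8.09 and 10.6 in the inputs (1.69 ± 0.27 with Ythdf1, adjusted p = 0.00181). Kif1c and Kif13b also passed the test with both antibodies, at log2 0.98 to 1.30, and Kif16b with neither.

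Kinesin-2, which serves both axons and cilia, was split within one motor. Kif3a and Kif3b, 2 heavy chains of the same heterotrimer, moved apart in the Ythdf1 IP. Kif3a had 3.84 and 4.42 normalised CPM in the Ythdf1 IPs, 9.78 and 7.66 in the Ythdf2 IPs, and 6.55 and 17.2 in the inputs. Kif3b had 10.7 and 11.7 in the Ythdf1 IPs, 6.78 and 6.39 in the Ythdf2 IPs, and 4.25 and 5.02 in the inputs. In the Ythdf1 IPs Kif3a lay below both inputs and Kif3b above both, at log2 -1.52 ± 0.43 (adjusted p = 0.0212) and 1.28 ± 0.27 (adjusted p = 0.00646). With Ythdf2 neither was called. Kif3c, the neuronal kinesin-2 that pairs with Kif3a, had 32.6 and 31.8 normalised CPM in the Ythdf1 IPs, 43.5 and 35.9 in the Ythdf2 IPs, and 12.3 and 12.04 in the inputs. It had the largest rise of any motor gene in the Ythdf2 IP, 1.70 ± 0.26 (adjusted p = 0.00238), and rose by 1.40 ± 0.26 in the Ythdf1 IP (adjusted p = 0.00305).

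**Figure D2:**
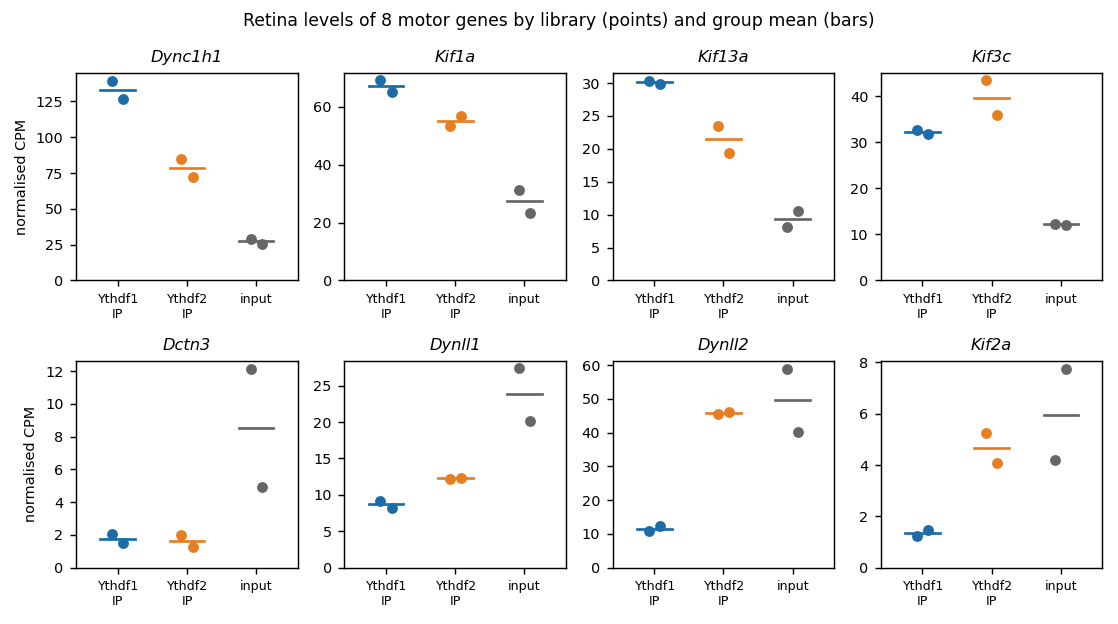
Normalised CPM (y axis, linear and starting at 0) of 8 motor genes in each retina library, with points for libraries and bars for the mean of 2. Dync1h1, Kif1a, Kif13a and Kif3c lie above input in all 4 IPs, Dctn3 and Dynll1 below it, and Dynll2 and Kif2a are low in the Ythdf1 IPs alone.

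No mitotic kinesin was called higher with either antibody. Of the 11, 2 were lower with Ythdf1, with a median log2 fold change of 0.22, against 17.3% of all genes higher and 20.3% lower. With Ythdf2 none was called, with a median of -0.17, against 9.55% higher and 10.7% lower. That second median has the opposite sign, 0.09, when libraries are scaled by their totals. Transport kinesins had medians of 1.12 and 1.00, with 8 of 12 higher and 1 lower with Ythdf1 and 7 higher and none lower with Ythdf2. Kif11, the Eg5 motor that pushes spindle poles apart, had 8.33 and 11.2 normalised CPM in the Ythdf1 IPs, 8.15 and 8.93 in the Ythdf2 IPs, and 1.89 and 10.2 in the inputs. The inputs were so far apart that they spanned all but 1 of the IP values, and neither difference passed the test (0.70 ± 0.59, adjusted p = 0.384, and 0.50 ± 0.60, adjusted p = 0.598). Kif23, the motor of the centralspindlin complex in cytokinesis, had 1.70 and 1.78 normalised CPM in the Ythdf1 IPs, 3.87 and 4.68 in the Ythdf2 IPs, and 3.63 and 8.08 in the inputs. It was lower with Ythdf1 (-1.75 ± 0.42, adjusted p = 0.0105), where both IPs were below both inputs, and not called with Ythdf2 (-0.45 ± 0.41, adjusted p = 0.467). Kif20b, another kinesin of cytokinesis, had 0.437 and 0.460 normalised CPM in the Ythdf1 IPs, 0.707 and 0.657 in the Ythdf2 IPs, and 1.27 and 3.48 in the inputs, a fall of 2.40 ± 0.58 on the log2 scale with Ythdf1 (adjusted p = 0.0113). The summed level of the 9 markers of dividing cells was 985 and 1047 protein-coding CPM in the Ythdf1 IPs, 972 and 1018 in the Ythdf2 IPs, and 885 and 1519 in the inputs, which enclosed the IPs. The part of this in the mitotic kinesin values was not tested.

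Among the other kinesins, the atypical kinesins Kif26a and Kif26b, which bind microtubules without walking, had high fold changes at low levels. Kif26b had 3.42 and 2.04 normalised CPM in the Ythdf1 IPs, 1.497 and 1.27 in the Ythdf2 IPs, and 0.384 and 0.697 in the inputs. Kif26a had 6.24 and 6.09 in the Ythdf1 IPs, 3.29 and 3.81 in the Ythdf2 IPs, and 1.30 and 1.42 in the inputs. Groups did not overlap for either gene. The log2 fold changes with Ythdf1 were 2.33 ± 0.50 (adjusted p = 0.00629) for Kif26b and 2.18 ± 0.32 (adjusted p = 0.00125) for Kif26a. With Ythdf2, Kif26a rose by 1.38 ± 0.33 (adjusted p = 0.0174), and Kif26b was not called (1.35 ± 0.50, adjusted p = 0.0887). Kif21b passed the test with Ythdf1 (1.38 ± 0.27, adjusted p = 0.00446) and not with Ythdf2 (0.84 ± 0.27, adjusted p = 0.0563), and Kif19a, a kinesin that trims cilia, with both antibodies at 1.22 and 1.31. Kif2a, which takes microtubules apart, had 1.24 and 1.47 normalised CPM in the Ythdf1 IPs, 5.24 and 4.07 in the Ythdf2 IPs, and 4.19 and 7.75 in the inputs. It fell by 2.14 ± 0.40 on the log2 scale in the Ythdf1 IP (adjusted p = 0.00329), and its Ythdf2 IPs overlapped the inputs. It overlaps Dimt1 on the other strand, and Kif3c overlaps 2 antisense transcripts.

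Set side by side, the 5 heavy chain genes of kinesin-1 and dynein (Kif5a, Kif5b, Kif5c, Dync1h1 and Dync2h1) included 2 higher and none lower with each antibody. Their medians were 0.49 and 0.94, against 17.3% of all genes higher with Ythdf1 and 9.55% with Ythdf2. The kinesin-2 heavy chains are not in this group, and of these Kif3a was lower and Kif3b and Kif3c higher with Ythdf1. The 6 light chain genes (Klc1 to Klc4, Dynll1 and Dynll2) included none higher, with 2 lower with Ythdf1 and 1 with Ythdf2, and medians of 0.38 and 0.32, against 20.3% and 10.7% of all genes lower. These are small groups, and the difference between them was not tested. The light chains of the 2 motors lay apart: all 4 Klc genes were above 0 with Ythdf1, and both Dynll genes below it.

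The order of the motor mRNAs by level differed between IP and input, which is another view of the same libraries and not a separate result. Levels of different genes were compared by the FPKM the authors deposited, a value per gene length and per total count, and the 53 genes were ranked within each library. Dync1h1 was 1st and 2nd in the 2 Ythdf1 IPs, 6th and 5th in the Ythdf2 IPs, and 14th and 19th in the inputs. Its FPKM in the 2 Ythdf1 IPs was 8.65 and 7.88. Dynll2 was 9th and 7th in the Ythdf1 IPs and 1st in both Ythdf2 IPs and both inputs, where its FPKM was 17.6 and 14.0. Klc1 was 2nd and 1st in the Ythdf1 IPs, 2nd in both Ythdf2 IPs, and 3rd and 6th in the inputs. Kif1a was 3rd in both Ythdf1 IPs, 4th and 3rd in the Ythdf2 IPs, and 9th and 10th in the inputs. Dctn3 was 17th and 25th in the Ythdf1 IPs, 17th and 27th in the Ythdf2 IPs, and 2nd and 5th in the inputs, where its FPKM was 9.51 and 4.499. In the Ythdf1 IPs Dync1h1 and Klc1 (8.01 and 8.16 FPKM) changed places between the replicates, and Kif1a (7.24 and 6.81) lay below both in each. Protein-coding genes took a different share of the total in each library, so that no FPKM is set against its value in another library.

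Between the antibodies, 2 of the 50 motor genes differed, both lower with Ythdf1. Over all genes 2.57% were higher and 6.56% lower, 9.13% in all, so that the motor genes were called no more often than others. The 2 genes were Dynll2 (-1.99 ± 0.29, adjusted p = 0.00501) and Kif2a (-1.78 ± 0.40, adjusted p = 0.0259), whose values are given above: the Ythdf1 IPs were below both Ythdf2 IPs in each case. Leaving out any of the 4 IP libraries left no motor gene called, and leaving out either input gave 20, among 53 and 51 motor genes then tested (30.8% and 30.9% of all genes). Leaving out an input also changed the filter on low counts and the scaling. Dync1h1 was higher in both Ythdf1 IPs than in both Ythdf2 IPs, by 0.76 ± 0.26, without passing the test (adjusted p = 0.0945).

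Coding length and base composition moved with recovery. Across the 50 genes, the log2 fold change with Ythdf1 had a Spearman correlation of 0.564 with coding length and 0.629 with the GC content of the coding sequence, against 0.440 and 0.361 across 12402 protein-coding genes. With Ythdf2 the values were 0.565 and 0.515 for the motor genes, against 0.416 and 0.118 for all. These are correlations across genes, which share libraries and are not independent replicates. With genes split at the medians of all genes (1419 coding bases, 53.2% GC), 10 of the 19 long, GC-rich motor genes were higher with Ythdf1 (52.6%), against 41.6% of 2914 such genes overall. Of the 6 short, GC-poor motor genes 4 were lower (66.7%), against 43.0% of 2925. Of the 23 long, GC-poor motor genes 4 were higher (17.4%) and 5 lower (21.7%), against 18.4% and 10.9% of 3276. Dctn3, which was lower, is short with 55.4% GC. The dynein heavy chains differ more in composition than in length: Dync1h1 has 13935 coding bases with 53.5% GC, and Dync2h1 12921 with 43.6%. Dynll1 and Dynll2 have 270 coding bases each.

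**Figure D3:**
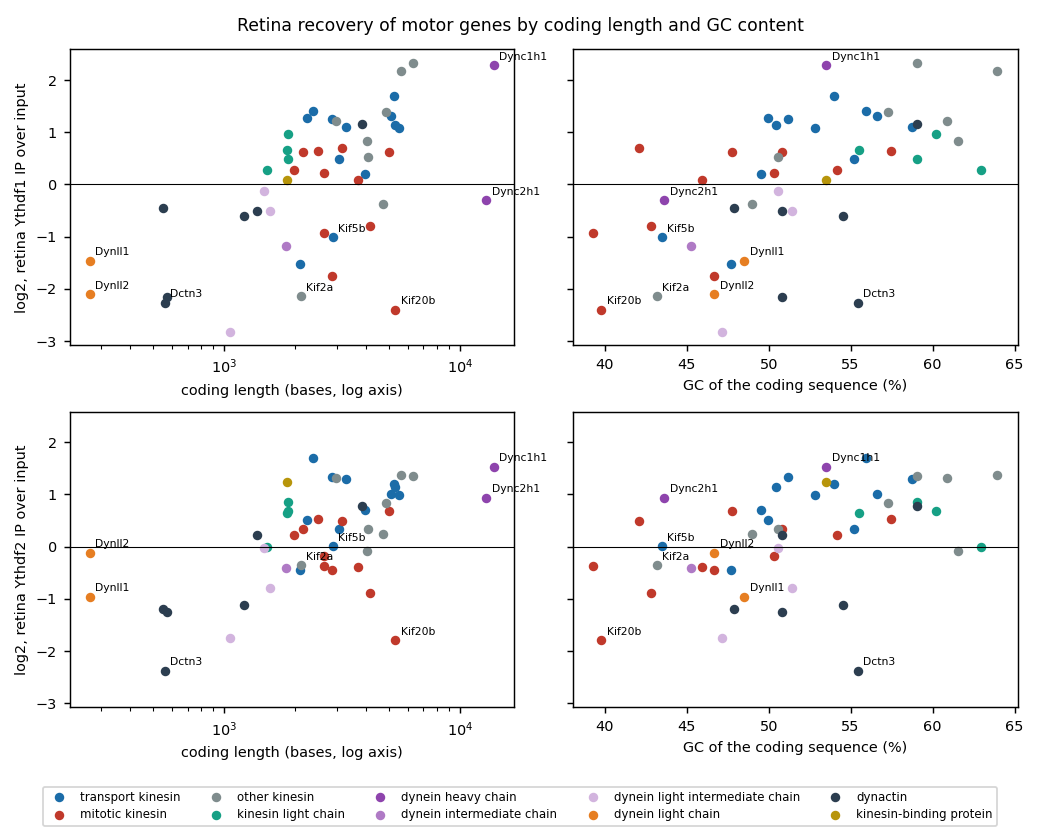
Log2 fold change over retina input (y axis; Ythdf1 IP above, Ythdf2 IP below) against coding length in bases (left, log axis) and GC content of the coding sequence in percent (right), with 1 point per motor gene coloured by role. In the Ythdf1 IP, genes that are both long and GC-rich tend to lie high, with a Spearman correlation of 0.564 for length and 0.629 for GC. Dynll1, Dynll2 and Dctn3 lie low there, while in the Ythdf2 IP Dynll2 lies at -0.12.

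To show the letters behind these genes, the GGACT nearest the stop codon was read from 1 GENCODE M21 transcript per gene, with 30 bases around it, for 6 of the dynein and kinesin genes on which the retina results turn. The capitals mark GGACT, the sequences run 5′ to 3′ on the sense strand, and a match is a description and not a site of methylation or binding.
Dync1h1: catcttcaccgtGGACTttgaaattgctac
Dync2h1: gctacatgggctGGACTccacaaggttcat
Dynll2: gcggcgttgctgGGACTgttgcactggggc
Kif1a: tgaaagccttccGGACTtccagtggcccag
Kif3c: ccgccttttcctGGACTgtgaggaggagca
Kif5c: gtagcatgaaaaGGACTgtagtagtcacca
In Dynll2, Kif1a and Kif5c the motif shown lies in the 3′ UTR, and in Dync1h1, Dync2h1 and Kif3c in the coding sequence. Genes that were higher and genes that were lower both hold it. The sense strand of the whole transcript holds it 15 times in Dync1h1, 20 times in Dync2h1, 17 in Kif1a, 10 in Kif3c, 8 in Kif5c, 5 in Dynll2 and 0 in Dctn3 and Klc1. The number per kilobase had a Spearman correlation of 0.263 with the Ythdf1 fold change across the 50 motor genes and 0.172 across all protein-coding genes.

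Further genes of the same machinery were read from 4 lists. Of 22 other motor and dynactin subunits, 2 were higher and 12 lower with Ythdf1, 1 and 6 with Ythdf2 (medians -1.72 and -0.55). Over all genes, against which the counts of each list are read, 17.3% were higher and 20.3% lower with Ythdf1 and 9.55% and 10.7% with Ythdf2. Among them Actr1a, the filament of dynactin, rose by 1.05 ± 0.32 (adjusted p = 0.0290) with Ythdf1 and Kifc3, a minus-end kinesin, by 1.13 ± 0.37 (adjusted p = 0.0367), and the roadblock light chain gene Dynlrb1 fell by 5.48 ± 0.45 (adjusted p = 0.000122). Dynlt1a fell by 2.88 ± 0.35, but the Dynlt1 genes are near-identical copies whose reads the counting may have split. Of 29 motor adaptors and regulators tested, 10 were higher and 4 lower with Ythdf1, and 7 higher and none lower with Ythdf2 (medians 0.64 and 0.54). Rab11fip3 and Bicd2, both dynein adaptors, rose with Ythdf1 by 1.83 ± 0.31 and 1.48 ± 0.27, and Madd, which loads kinesin-3 vesicles, rose with Ythdf2 by 2.11 ± 0.28. Arl8b, a lysosomal GTPase that recruits kinesin-1, fell with Ythdf1 by 2.59 ± 0.29, and Ndel1, a dynein regulator, by 1.82 ± 0.36. Of 26 mitotic spindle and cytokinesis genes without a motor, 1 was higher and 7 were lower with Ythdf1, and 1 and 3 with Ythdf2 (medians -0.46 and -0.28). The kinetochore gene Kntc1 rose by 2.00 ± 0.55 with Ythdf1, and the checkpoint gene Mad2l1 fell by 2.81 ± 0.31 and Nusap1 by 2.48 ± 0.54. With Ythdf2, Racgap1, the partner of Kif23, rose by 0.95 ± 0.28, and Birc5 fell by 1.53 ± 0.29 and Mki67 by 2.28 ± 0.60. Of 18 intraflagellar transport genes, 4 were higher and 7 lower with Ythdf1 and 3 and 4 with Ythdf2 (medians -0.67 and -0.23). With Ythdf2, Dynlrb1 fell by 4.82 ± 0.44 and Rab11fip3 rose by 1.62 ± 0.31. Between the antibodies, the capping subunit gene Capza1 (-2.43 ± 0.30), the light chain gene Dynlt3 (-4.33 ± 0.57), Arl8b (-2.17 ± 0.29), the dynein adaptor gene Hook3 (-3.52 ± 0.56) and Mad2l1 (-2.45 ± 0.31) were lower with Ythdf1, and Tor1a was higher (1.78 ± 0.38). In the cortex no gene of the 4 lists was called against input or between the antibodies.

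In the cortex no motor gene was called in either IP against input or between the antibodies, nor was any of the 17611 genes tested by edgeR (0% in each comparison). At an unadjusted p under 0.05 there were 1539 genes with Ythdf1, 1983 with Ythdf2 and 316 between antibodies, among them 3, 5 and 1 motor genes. DESeq2, run on 30228 genes without the filter on low counts, called 1 motor gene lower with Ythdf1 (1.23% of those genes in either direction). It called 1 higher and 1 lower with Ythdf2 (1.93%), and none between the antibodies (0.0728%). The 2 inputs were far apart at Kif5a, which had 19.8 and 13.4 normalised CPM in the cortex Ythdf1 IPs, with 16.6 and 15.1 in the Ythdf2 IPs, against 1025 in the library labelled cortex input replicate 1 and 20.6 in replicate 2. Dync1h1 had 280.1 and 213 in the Ythdf1 IPs, with 226 and 283 in the Ythdf2 IPs, against 171 and 169.5 in the inputs, which all 4 IPs exceeded without passing the test (0.53 ± 0.76 and 0.58 ± 0.76). Without cortex input replicate 1, whose removal leaves 1 input that is assumed to vary like the other groups, 1 motor gene was higher and 1 lower with Ythdf1, against 1.87% and 3.27% of all genes, 5.13% in all. With Ythdf2 1 was higher and 4 were lower, against 2.97% and 6.43%, 9.41% in all. Kif26a rose with both, by 1.79 ± 0.51 (adjusted p = 0.0425) and 2.37 ± 0.53 (adjusted p = 0.00590), and Kif3a fell with both, by 1.86 ± 0.42 (adjusted p = 0.0104) and 1.84 ± 0.42 (adjusted p = 0.00650). Dync2li1, Dync1i2 and Dctn6 were lower with Ythdf2 by 2.38, 1.57 and 1.49. Between the antibodies none was called, against 0.787% and 0.0869% of all genes, 0.874% in all. Without cortex input replicate 2 in its place, 25 motor genes were called with Ythdf1 and 27 with Ythdf2, against 29.5% and 32.4% of all genes.

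**Figure D4:**
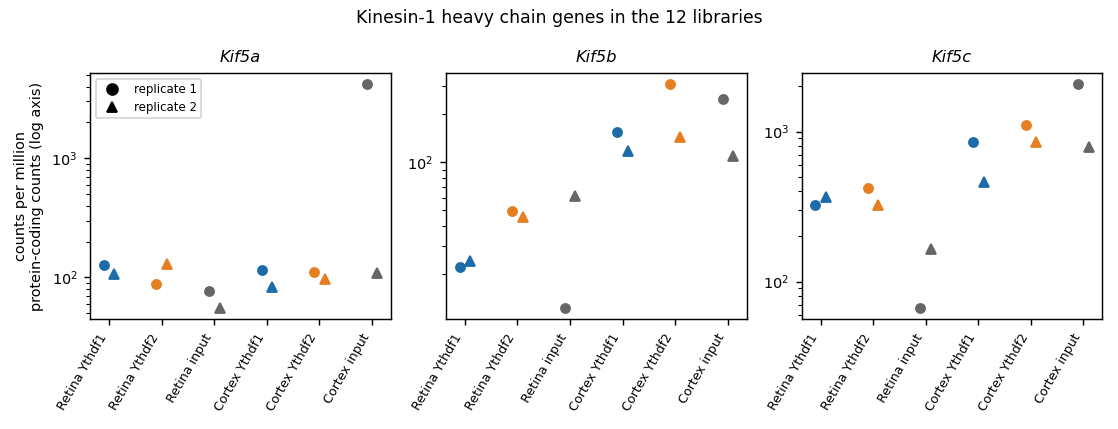
Level in protein-coding CPM (counts scaled to the protein-coding total; y axis, log scale) of the 3 kinesin-1 heavy chain genes in the 12 libraries, with circles for replicate 1 and triangles for replicate 2. Kif5a reaches 4174 in the library labelled cortex input replicate 1 and stays between 55.6 and 129 in the other 11.

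The retina IPs were then compared with the cortex IPs, with no input in the fit, so that these are differences in the RNA of the precipitates and not in enrichment. Tissue and age differ together. Of the 53 motor genes, 9 were higher and 25 lower in retina IPs, against 22.4% and 29.5% of the 17055 genes tested, 51.9% in all, with an all-gene median of -0.19. With library totals the all-gene median moved to -1.15 and the split to 2 higher and 38 lower, against 56.4% of all genes in either direction. Of the 9 genes called higher, 6 then lay below 0 (Klc1, Kif18b, Kif3c, Kif1bp, Dctn1 and Dctn5, at -0.08 to -0.50). The differences below are those of the trimmed-mean scaling, not shifted, and are to be read against its all-gene median of -0.19. In all, 7 motor genes had all 4 retina IPs above all 4 cortex IPs and 21 had them below (13.2% and 39.6%), against 16.4% and 21.7% of all genes. In bulk tissue, fewer cells that express a gene and less RNA per cell cannot be told apart.

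Mitotic kinesins were lower in the retina IPs in 8 of 11 cases and higher in 1, against 29.5% and 22.4% of all genes. Their median was -0.81, against -0.19 for all genes. Among those lower were Kif4, Kif18a and Kif20a, which overlap a gene on the opposite strand, so that their counts are uncertain. Kif11 had 12.5 and 16.8 normalised CPM (scaled over the 8 IPs) in the retina Ythdf1 IPs and 11.3 and 12.3 in the retina Ythdf2 IPs, against 38.4 and 32.4 in the cortex Ythdf1 IPs and 27.5 and 16.7 in the cortex Ythdf2 IPs. The tissues overlapped by 1 library (-1.09 ± 0.20, adjusted p = 0.000508). Kif23 had 2.55 and 2.66 in the retina Ythdf1 IPs and 5.37 and 6.43 in the retina Ythdf2 IPs, against 8.66 and 11.2 in the cortex Ythdf1 IPs and 11.2 and 9.41 in the cortex Ythdf2 IPs. It was lower in every retina IP (-1.37 ± 0.19, adjusted p = 7.83e-05), where no tissue overlapped the other. Kif20b had 0.655 and 0.686 in the retina Ythdf1 IPs and 0.982 and 0.901 in the retina Ythdf2 IPs, against 8.47 and 5.45 in the cortex Ythdf1 IPs and 11.3 and 5.06 in the cortex Ythdf2 IPs, the lowest difference of the mitotic kinesins (-3.25 ± 0.32, adjusted p = 3.45e-06). Kif18b, which shortens spindle microtubules, was higher instead, at 25.4, 25.3, 22.0 and 21.4 in the retina IPs, against 13.3, 13.0, 12.6 and 11.9 in the cortex IPs (0.88 ± 0.15, adjusted p = 0.000377, or -0.08 with library totals). Of the 26 mitotic genes without a motor, 15 were lower and 4 higher, with Mki67 at -4.34 ± 0.27 and Knl1 at -3.30 ± 0.21, and Racgap1 at 1.03 ± 0.17 and Birc5 at 1.02 ± 0.18. The 9 markers of dividing cells, all detected in every IP, summed to 972 to 1047 protein-coding CPM in the retina IPs, against 2863 to 4799 in the cortex IPs. Mki67 carried most of this gap, at 80.3 to 138 in the retina IPs, against 1526 to 3403 in the cortex IPs, followed by Top2a at 224 to 253, against 600.1 to 783. With Tpx2 and Bub1, 4 of the 9 were lower in every retina IP. Aurkb and Birc5 were higher in every retina IP, and Aurka, Ccnb1 and Plk1 overlapped. The part of these markers in the result was not tested.

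Most of the mitotic kinesins share a promoter feature that the choice of genes did not use. TTTGAA is the letter sequence of the cell cycle genes homology region, an element known from promoters of genes expressed in the G2 and M phases. It was searched on both strands (TTTGAA or TTCAAA) in RefSeq promoter windows, which reach from 250 bases before to 50 after a gene start (build GRCm38.p6). It was found in 9 of 10 windows of mitotic kinesins (90.0%), in 1 of 11 windows of transport kinesins (9.09%) and in 17.9% of all 32851 windows. Kif20a had no window. The windows of Kif11 (chr19:37376132-37376431, plus strand) and Kif23 (chr9:61946750-61947049, minus strand) are given 5′ to 3′ in the direction of the gene, with the motif in capitals.
Kif11: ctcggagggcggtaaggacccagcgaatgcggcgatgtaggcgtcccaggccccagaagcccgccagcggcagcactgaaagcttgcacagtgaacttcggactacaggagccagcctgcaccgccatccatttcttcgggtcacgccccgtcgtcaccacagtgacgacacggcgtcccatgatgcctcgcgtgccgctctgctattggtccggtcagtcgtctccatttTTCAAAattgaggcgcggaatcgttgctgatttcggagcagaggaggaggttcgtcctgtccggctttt
Kif23: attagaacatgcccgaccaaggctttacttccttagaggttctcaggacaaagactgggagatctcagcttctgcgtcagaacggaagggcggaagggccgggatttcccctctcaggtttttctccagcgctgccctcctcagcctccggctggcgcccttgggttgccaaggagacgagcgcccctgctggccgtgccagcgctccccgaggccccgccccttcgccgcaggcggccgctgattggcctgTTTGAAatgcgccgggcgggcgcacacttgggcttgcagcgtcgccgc
The motif starts at -19 in Kif11 and at 2 in Kif23, counted from the gene start. In Kif14 and Kif2c the only match lay further upstream, at -228 and -103. Kif18a was the mitotic kinesin whose window had no match, and Kif18b, which was higher in the retina IPs, had one at 3. These letters are a description, not a binding site.

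Transport kinesins went both ways between the tissues, with 2 of 12 higher and 5 lower in retina IPs, against 22.4% and 29.5% of all genes. Their median was -0.30, near the all-gene median of -0.19 (-1.29 against -1.15 with library totals). Kif13a had 45.5 and 44.5 normalised CPM in the retina Ythdf1 IPs and 32.5 and 26.7 in the retina Ythdf2 IPs, against 18.3 and 9.05 in the cortex Ythdf1 IPs and 19.6 and 24.2 in the cortex Ythdf2 IPs. All retina IPs lay above all cortex IPs (1.07 ± 0.21, adjusted p = 0.00110, or 0.05 with library totals). Among the kinesin-1 heavy chains, Kif5b was lower in retina, at -2.53 ± 0.24 (adjusted p = 2.59e-06) and Kif5c at -1.28 ± 0.23 (adjusted p = 0.000446), with no overlap, while Kif5a was not called (0.03 ± 0.19, adjusted p = 0.912). Kif5b had 3.13, 3.3, 6.30 and 5.70 normalised CPM in the retina IPs, against 24.3, 17.5, 41.9 and 20.04 in the cortex IPs. Dync1h1 was lower, at -0.63 ± 0.19 (adjusted p = 0.0165), with some overlap between tissues, and Dync2h1 at -1.80 ± 0.19 (adjusted p = 7.92e-06), with none.

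Of the 6 light chain genes 2 were higher and none lower, against 22.4% and 29.5% of all genes. They were Klc1 (0.88 ± 0.16, adjusted p = 0.000515, or -0.09 with library totals) and Klc3. The median of the 4 Klc genes was 0.69, or -0.28 with library totals, above the all-gene median under both scalings, and the 6 dynactin genes had a median of 0.18, or -0.73 with library totals, with 2 higher and none lower. These were Dctn1 (0.53, or -0.43 with library totals) and Dctn5 (0.46, or -0.50). Klc3 had 154, 161, 67 and 94 counts in the retina IPs, against 4, 0, 7 and 20 in the cortex IPs. Its fitted difference, 5.49 ± 0.39 (adjusted p = 2.36e-07), was the largest of the motor genes and depends on how counts near 0 are treated. It overlaps Ercc2, which had 2796 counts in all libraries against 767 for Klc3. The remaining kinesins were lower in 8 of 11 cases. Of the 22 other subunits 7 were higher and 4 lower, with Actr1a at 1.26 ± 0.19 and Kifc3 at 1.80 ± 0.28 above, and Cenpe at -3.86 ± 0.37 and Wdr60 at -1.32 ± 0.26 below. Of the 29 adaptors 12 were higher and 8 lower, with Madd at 2.30 ± 0.17, Trak2 at 1.67 ± 0.19, Ninl at -1.62 ± 0.18 and Hook3 at -1.35 ± 0.19, and of the 18 intraflagellar transport genes 5 went each way. Kif26b had 5.13, 3.04, 2.08 and 1.74 normalised CPM in the retina IPs, against 31.3, 18.8, 20.99 and 28.1 in the cortex IPs (-3.15 ± 0.25, adjusted p = 4.63e-07). Kif27, a ciliary kinesin, had the lowest value, -3.44 ± 0.59 (adjusted p = 0.000335), on 7, 5, 2 and 0 counts in the retina IPs, against 34, 15, 85 and 180 in the cortex IPs. Kif19a went the other way, with 13.7, 14.9, 15.1 and 13.1 normalised CPM in the retina IPs, against 0.441, 0.496, 0.363 and 0.993 in the cortex IPs (4.62 ± 0.30, adjusted p = 9.51e-08).

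**Figure D5:**
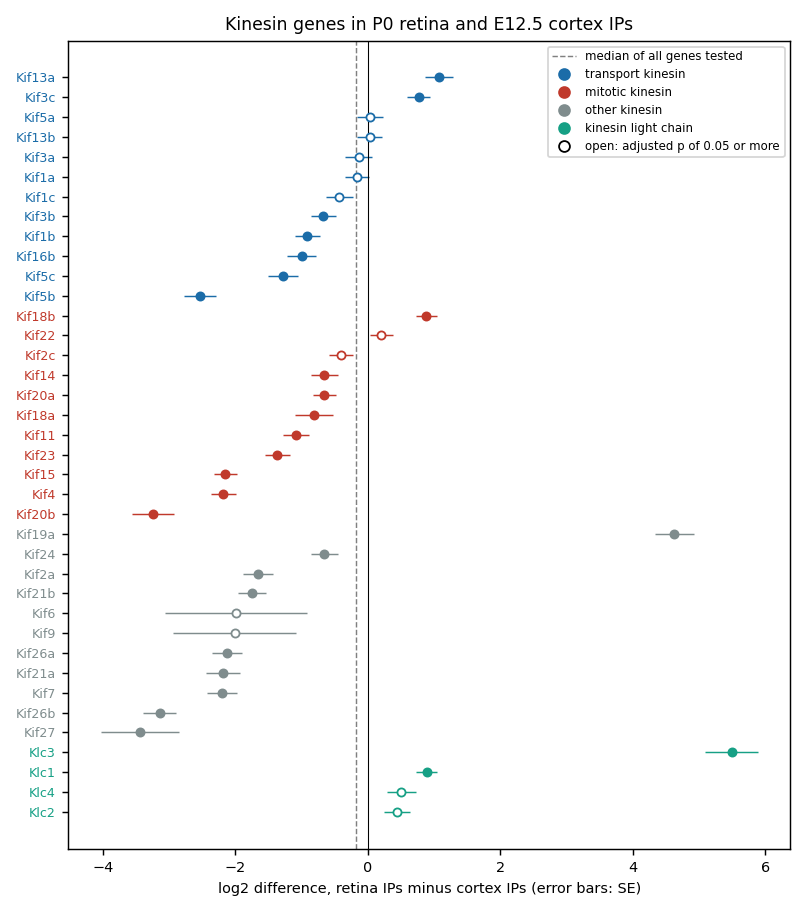
Log2 difference of retina IPs minus cortex IPs (x axis) for the kinesin and kinesin light chain genes by role, with bars for the SE, filled symbols for an adjusted p under 0.05 and a dashed line at the median of all genes tested. Among mitotic kinesins 8 of 11 lie below 0 and pass the test, against 29.5% of all genes tested, and Klc3 and Kif19a lie far to the right.

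Retina input was compared with cortex input in a model of all 12 libraries. Here 2 motor genes were higher in retina, Klc3 (4.30 ± 0.72, adjusted p = 0.00784) and Kif19a (4.07 ± 0.69, adjusted p = 0.00824), and 6 were lower, Kif5a, Kif5c, Kif26b, Kif1b, Kif1a and Dync1h1, against 3.51% and 4.01% of all genes, 7.52% in all. The library labelled cortex input replicate 1 decides part of this. Without it 2 were higher and 17 lower, against 8.82% and 11.1% of all genes, 19.9% in all. Klc3 and Kif19a kept their calls, Kif5a and Kif1a lost theirs, and Kif11, Kif15, Kif20a, Kif2c and Kif4 were then lower in retina, 5 of the 11 mitotic kinesins. Kif20a and Kif4 overlap a gene on the opposite strand, so that their counts are uncertain. Without cortex input replicate 2 the calls rose as well, among the motor genes and among all genes. Without retina input replicate 1, or any 1 of the remaining 9 libraries, they fell in both. No motor gene kept its call without retina input replicate 1. Kif19a had 37.9 and 31.4 protein-coding CPM in the retina inputs, against 2.98 and 1.17 in the cortex inputs, so that its tissue difference stood in the IPs and in the inputs alike.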

How the data were processed

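Per gene, the authors deposited raw counts, which are whole numbers in all 12 libraries, and FPKM; what gene length the FPKM rest on is not known here. Per the submitters' processing notes, STAR 2.5, HTSeq and the build GRCm38 were used. Neither the annotation release nor the strand setting of the counting is given in the sources used here. Symbols, gene classes, coding lengths and transcripts came from GENCODE M21, which matched 52403 of 52550 genes. The motor genes and the lists were chosen with earlier results of these data known.

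Tests used the counts. Genes were kept by filterByExpr (minimum count 10, minimum total 15), scaled by the trimmed mean of M values (TMM) and fitted with edgeR 4.0.16 (limma 3.58.1, R 4.3.3; robust quasi-likelihood fit, two-sided). IP comparisons used the 6 libraries of a tissue, the tissue comparison the 8 IPs and the input comparison all 12 libraries, which gave 8 comparisons. The p-values were adjusted by Benjamini-Hochberg over all genes of a fit and called under 0.05. Each SE was obtained from the log2 fold change and its F statistic. Values in every library are given for leading genes of each role, chosen by name, and for the 3 called genes with the largest rise and fall in each retina IP and between tissues. Kif3b, Kif2a, Kif18b and, in part, Dctn5 are given as well, outside these rules and with their results known. From the lists, up to 2 called genes of smallest p in each direction are named. Motor genes that overlap a gene of at least 50 counts are treated as uncertain. Alternatives were library totals, DESeq2 1.42.0, protein-coding genes only, no filter, a replicate block, all 12 libraries in one model and leaving out each library. The total counts limit the precision, and since reads were not tied to single molecules, repeated copies of a molecule cannot be told from separate ones. One sequence window is not reported here.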

Additional observations from a re-analysis of the deposited data

Results flagged for a closer look

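Motor genes whose recovery differed between the antibodies under the same contrast with the retina input numbered 2 of the 50 tested. Over all genes 9.13% were called, so that motor genes were called no more often than others. Dynll2 differed by -1.99 on the log2 scale (Ythdf1 IP minus Ythdf2 IP, adjusted p = 0.00501 by edgeR), with -2.10 over input for Ythdf1 and -0.12 for Ythdf2. Kif2a differed by -1.78 (adjusted p = 0.0259), with -2.14 and -0.36 over input. Both Ythdf1 IPs lay below both Ythdf2 IPs for each gene. The 2 inputs are shared by the antibodies and cancel in the difference. With 2 libraries a group, no single library could be tested as standing apart from its group.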

How the results depend on the processing

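Counts of motor genes called depended on the fit in several comparisons. The share of all genes called in either direction stands in brackets. With all 12 libraries in one model, 9 were called in the retina Ythdf1 IP (8.80%) and 0 in the retina Ythdf2 IP (2.04%). That model called 0 between the antibodies in retina (0%) and 15 between the tissues' IPs (23.1%). At an unadjusted p under 0.05 it had 3039 genes in the retina Ythdf2 IP and 2211 between the antibodies in retina. With no filter on low counts 4 were called between the antibodies in retina (7.65%), 1 in the cortex Ythdf1 IP (2.27%) and 1 in the cortex Ythdf2 IP (2.34%). DESeq2 called 1 in the cortex Ythdf1 IP (1.23%), 2 in the cortex Ythdf2 IP (1.93%) and 15 between the inputs (10.7%). With DESeq2 and with no filter the share is taken over every gene with a count. That base is larger than in the filtered fits, so that these shares cannot be set beside the others. Library totals gave 0 between the inputs (1.94%), with 2762 genes at an unadjusted p under 0.05. Leaving out each library in turn gave 10 to 36 for the retina Ythdf1 IP, 0 to 29 for the retina Ythdf2 IP, 0 to 20 between the antibodies in retina, 0 to 25 for the cortex Ythdf1 IP, 0 to 27 for the cortex Ythdf2 IP, 0 to 0 between the antibodies in cortex, 28 to 34 between the tissues' IPs and 0 to 30 between the inputs. The share of all genes called moved as well in each comparison, so that these ranges are not a trait of motor genes alone. Where this left a group with 1 library, that library was assumed to vary like the other groups. Of the 24 genes called in the retina Ythdf1 IP, 9 kept their call under all 6 other settings and 8 without each library in turn; of the 16 called in the retina Ythdf2 IP none did. No call in the retina IPs changed direction under any setting run. Between the tissues' IPs, library totals put 6 of the 9 genes called higher below 0, while the all-gene median moved to -1.15. Replicates with the same number showed little shared deviation (correlations of -0.0833 to 0.139). Pairing by number was therefore not evident, which does not exclude it. A fit with a replicate block called 24, 16, 2, 0, 0, 0, 33 and 6 motor genes in the 8 comparisons. The shares of all genes were 37.4%, 20.7%, 10.1%, 0%, 0%, 0%, 48.2% and 5.23%. The order is retina Ythdf1, Ythdf2 and their difference, the same for cortex, the tissues' IPs and the inputs.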
